A study of Homo sapiens with 4 samples.

Results

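Kinesins, cytoplasmic dynein and dynactin move cargo and organise microtubules, and circular RNA from their genes was compared between control cells of a breast cancer line and cells with a knockdown hairpin against the splicing regulator HNRNPL. A row of the authors' table is 1 circle, defined by its back-splice position. Circles were taken when the table did not type them as antisense and when a gene they name has a symbol made of KIF and a digit, or starting with KIFC, KIFBP, DYNC1 or DCTN. KIFAP3 and the DYNC2 genes were left out. The rule gave 1160 of 211599 circles, from 39 of 15233 host genes, and 1083 of them had at least 1 count. The other 77 were listed with no counts in any library. A further 91 antisense circles naming these genes, with 199 counts, were not taken.

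All 4 libraries came from radioresistant MDA-MB-468 cells, an established human breast carcinoma line that had received 50 Gy in all, so the control carries the radioresistance too. The control group is 2 libraries of cells with the hairpin shCtrl, and the knockdown group is 2 libraries of cells with a stable shHNRNPL hairpin. The extraction notes name the knockdown cells by 1 hairpin, shHNRNPL-1, so an effect of that hairpin other than loss of HNRNPL cannot be told apart from the knockdown. The labels call the 2 libraries of a group biological replicates and do not say whether a group is a clone or a pool. Total RNA was copied with Induro, a reverse transcriptase that can run around a circle several times, amplified with phi29 polymerase and read on nanopores. No molecular identifiers were used, so a count is a read and not an independent molecule. Fewer cells in which a gene is active and less circular RNA per cell cannot be told apart in such bulk libraries, and linear RNA of the genes was not measured.

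A circular RNA forms when the end of an exon is spliced back to the start of the same or an earlier exon, so each circle is set by 1 acceptor, where it begins, and 1 donor, where it ends. HNRNPL binds CA-rich RNA and can alter the choice of splice sites, back-splice sites included. Most kinesins step towards the plus end of microtubules. Some carry vesicles and organelles, while others build the mitotic spindle, align chromosomes or act in cytokinesis. Cytoplasmic dynein steps towards the minus end and needs dynactin, a complex that tethers it to its cargo.

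Library totals ran from 282737 to 556578 counts over all circles, and both knockdown libraries were shallower than both control libraries. Control library 1 stood apart: intron-type circles held 19.7% of its counts, against 9.93% to 10.6% in the other 3 libraries. Over the motor circles the control libraries differed from each other more than the knockdown libraries did, with a mean chi-square of 12.7 over 21 circles against 2.44 over 25 circles. Among the defining markers of a basal breast line, 6 of 10 had circles, led by CD44 and EGFR, whereas KRT6A, KRT14, KRT17 and ITGB4 were at 0. Summed raw marker counts were 386 and 254 in the controls and 143 and 181 in the knockdown. The library totals were 472428 and 556578 against 282737 and 390547, and relative to these totals the groups overlapped, with control library 1 the highest. Luminal markers had counts for 3 of 4 genes (raw sums of 26 and 8 against 3 and 3), and all 4 fibroblast and all 3 immune markers were at 0. Circular RNA of HNRNPL itself was not analysed here, so the knockdown was not checked.

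Motor circles made up more of the circular RNA in the knockdown libraries. Their counts were 1703 and 2516 in the control libraries and 1546 and 2421 in the knockdown libraries, which is 360, 452, 547 and 620 per 100000 library counts. Both knockdown libraries lay above both controls, with means of 406 ± 64.7 (SD, n = 2) and 583 ± 51.7 (SD, n = 2). No test was made of this sum, because its members are a chosen list. Circles of KIF18A and KIF20B held 41.7% of the 8186 counts. Without them the range narrowed to 261 and 274 per 100000 in the controls and 295 and 303 in the knockdown, still without overlap. Kinesins of cell division held most of the difference, at 179 and 293 per 100000 against 421 and 482. Kinesins of transport lay lower in the knockdown, at 124 and 111 against 83.1 and 96.0. Dynein lay lower at 28.6 and 23.7 against 21.9 and 15.1. A typical host gene also lay lower at this scaling by library totals. The median log2 fold change was -0.58 over all tested host genes, and -0.62 over the tested transport kinesins. Dynactin circles were at 12.9 and 2.16 against 1.41 and 2.56, and those of cilium, centriole and other kinesins at 13.5 and 21.4 against 17.7 and 24.1, both overlapping.

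**Figure D1:**
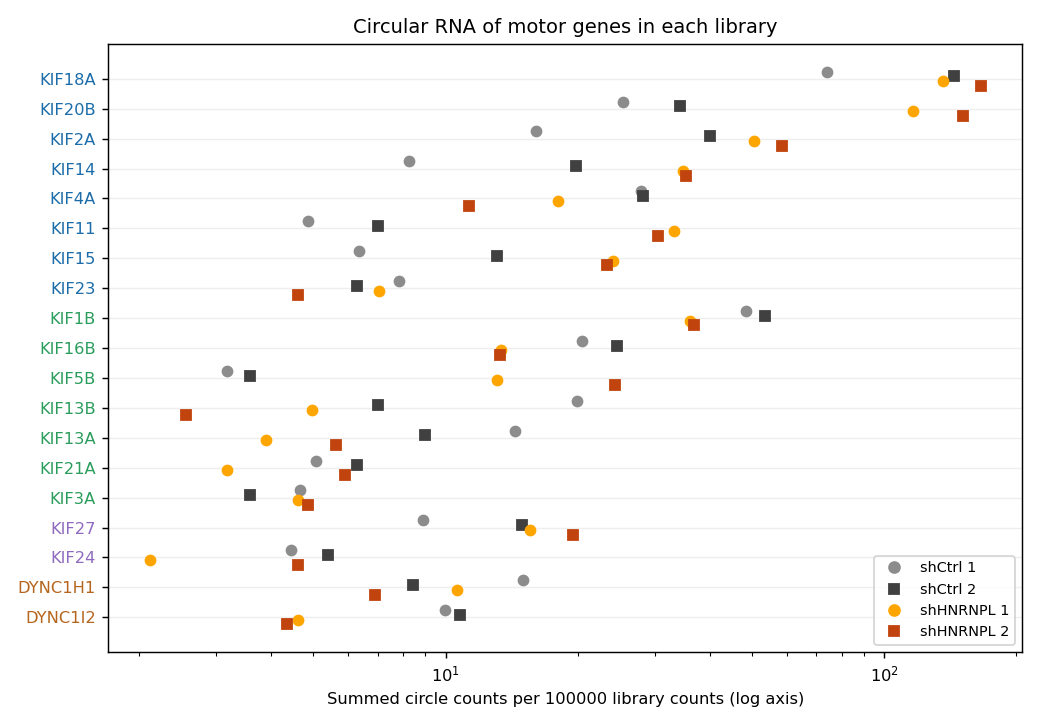
Summed circle counts per 100000 library counts (log axis) of the 19 motor genes with the most counts, 1 point per library, with gene names coloured by role (blue cell division, green transport, purple cilium or centriole, brown dynein). For KIF11, KIF20B and KIF5B both knockdown libraries lie far to the right of both controls, whereas for KIF1B, KIF16B and KIF4A they lie to the left.

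At least 10 counts over the 4 libraries were needed for a test, which 30 of the 39 genes had. Counts summed per gene were compared between the groups with edgeR's quasi-likelihood test, fitted on all 8379 host genes and adjusted over them (Benjamini-Hochberg), with an adjusted p of 0.05 as the threshold. KIF11 was the 1 member past it, and it rose. Over all host genes 0.442% were called higher and 0% lower. At an unadjusted p under 0.05, 6 members were higher and 3 lower, against 7.58% higher and 6.19% lower of all host genes. The groups did not overlap, with the knockdown above, for 8 of 30 members (26.7%, against 15.3% of all host genes). With the knockdown below, this held for 9 of 30 (30.0%, against 36.7%). The median log2 fold change was -0.01 over the 30 members and -0.26 over all host genes. These medians moved to -0.37 and -0.58 when libraries were scaled by their totals in place of TMM factors, so directions of small changes are relative to that shift. Without control library 1, 9 members passed, 6 higher and 3 lower, without control library 2, 13 passed, 8 higher and 5 lower, and without either knockdown library 0 passed.

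**Figure D2:**
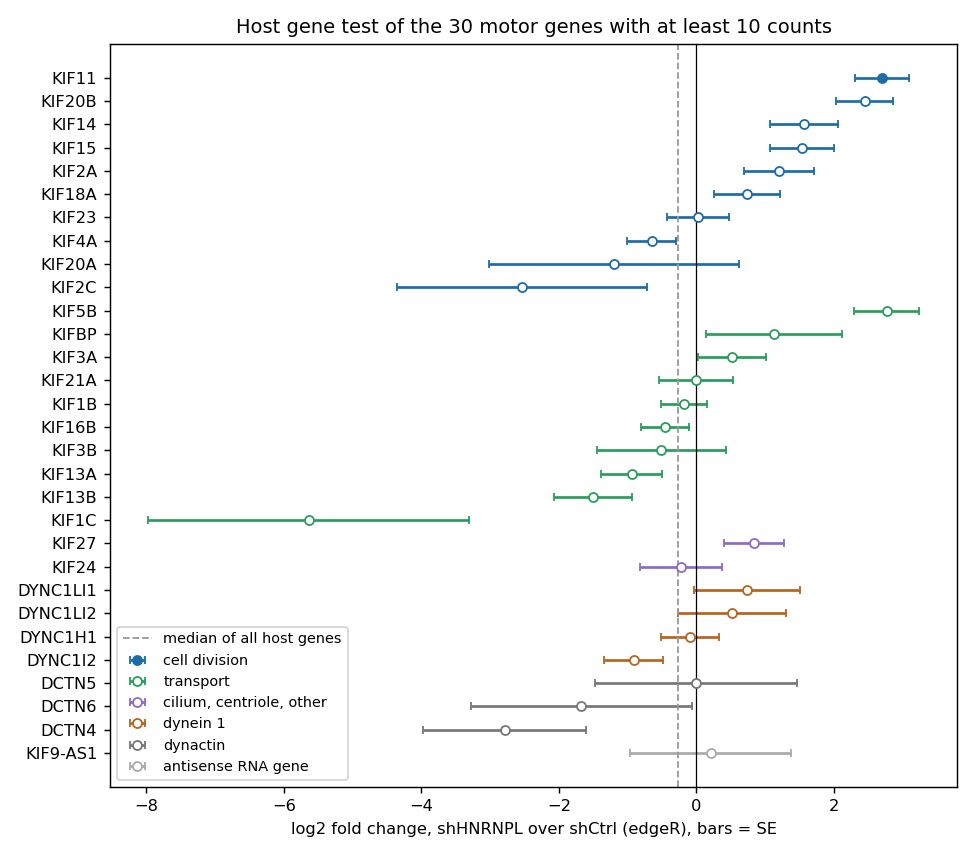
The log2 fold change of each of the 30 tested motor genes, shHNRNPL over shCtrl, with its SE from edgeR, coloured by role; the filled point is the gene past an adjusted p of 0.05 and the dashed line is the median of all host genes, -0.26. KIF11, KIF20B and KIF5B lie at 2.45 to 2.77, and 7 of the 10 cell division kinesins lie above 0.

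Kinesins of cell division were the group with more circular RNA in the knockdown. Of 10 tested, 1 passed (KIF11) and 5 were higher at an unadjusted p under 0.05 (7.58% of all host genes), with none lower (6.19%), and the median log2 fold change was 0.98 (0.71 with library totals). For 5 of the 10 the groups did not overlap with the knockdown above (15.3% of all host genes), and for 1, KIF4A, with the knockdown below (36.7%). KIF18B and KIF4B had 2 counts each and were not tested.

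KIF11 (chromosome 10, 92593130 to 92655395, GRCh38.p14) encodes a motor that slides antiparallel microtubules apart and so separates the spindle poles. Its 53 detected circles had 23 and 39 counts in the control libraries and 94 and 119 in the knockdown libraries, or 4.87, 7.01, 33.2 and 30.5 per 100000. Both knockdown libraries were several times above both controls and lay close together. The means of 5.94 ± 1.51 and 31.9 ± 1.96 per 100000 (SD, n = 2 each) differ 5.37-fold, and the fitted log2 fold change was 2.70 ± 0.39 (SE, edgeR adjusted p = 0.0388). It was positive in 16 of 16 alternative settings and past the threshold in 13. The adjusted p was 0.0923 with edgeR's newer dispersion method, 0.667 without knockdown library 1 and 0.919 without knockdown library 2. Almost all of the signal was exonic, with 1.82% of the counts in intron-type circles. It was not held by 1 circle, as the circle with the most counts held 20.4% of them. Of 6 tested circles 5 lay higher in both knockdown libraries, against 23.2% of all circles. Most of the 5 had few control counts and reached the 10-count minimum mainly through the knockdown libraries. No unequal use of the 6 was detected (edgeR diffSpliceDGE adjusted p = 0.395), which at such low counts does not show even use. Circles ending at the donor at 92645642 had 0 and 0 counts in the controls against 17 and 14 in the knockdown, at least 8.17-fold higher against a floor of 3 counts per library. Those starting at the acceptor at 92606265, in contrast, were already present in the controls, with 3 and 23 counts against 26 and 43.

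KIF20B (chromosome 10, 89701590 to 89774934) encodes a motor of late cytokinesis. Its 159 detected circles had 120 and 191 counts in the controls and 329 and 590 in the knockdown, or 25.4, 34.3, 116 and 151 per 100000. The groups stood far apart, at means of 29.9 ± 6.30 and 134 ± 24.5 (SD, n = 2 each). The fitted log2 fold change of 2.45 ± 0.42 just missed the threshold (edgeR adjusted p = 0.0580, and 0.104 with edgeR's newer dispersion method). It was 2.21 or 2.97 without control library 1 or 2, and 2.68 or 2.23 without knockdown library 1 or 2. Exon-type circles carried the difference. Exon-type circles had 57 and 139 counts against 303 and 550, whereas intron-type circles had 63 and 52 against 26 and 40, which is 13.3 and 9.34 against 9.20 and 10.2 per 100000 and overlaps. With exon-type circles alone, for all genes, the log2 fold change was 2.94 ± 0.44 (edgeR adjusted p = 0.0324).

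The 250 bases before the RefSeq start of these genes (GRCh38.p14, plus strand) are shown because they have the smallest p-values of the cell division kinesins. They are chr10:92592880-92593129 for KIF11 and chr10:89701340-89701589 for KIF20B. Capitals mark the cell cycle genes homology region (CHR, TTTGAA) and the CCAAT box (CCAAT), each searched on both strands, so that TTCAAA and ATTGG are their reverse. Both motifs are known from promoters of genes active in late cell cycle.
KIF11: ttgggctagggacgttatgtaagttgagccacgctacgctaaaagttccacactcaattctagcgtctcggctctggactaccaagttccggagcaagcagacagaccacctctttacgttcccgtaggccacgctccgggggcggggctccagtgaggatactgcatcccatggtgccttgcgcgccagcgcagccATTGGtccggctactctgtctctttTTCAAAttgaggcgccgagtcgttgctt
KIF20B: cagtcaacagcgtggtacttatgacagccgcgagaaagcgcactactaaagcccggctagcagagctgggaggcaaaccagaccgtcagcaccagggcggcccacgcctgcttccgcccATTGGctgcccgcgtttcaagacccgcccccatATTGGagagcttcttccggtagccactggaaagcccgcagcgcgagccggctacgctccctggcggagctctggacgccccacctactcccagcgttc
KIF11 held 1 CHR and 1 CCAAT box, and KIF20B held 2 CCAAT boxes and no CHR. Of the 33 motor genes with a promoter in the RefSeq table, 6 held a CHR and 18 a CCAAT box, against 13.3% and 32.0% of all 35116 promoters. Motor genes were counted once per symbol, whereas the 35116 promoters were not reduced in this way, so the sets are not fully alike. Among the 12 cell division kinesins 5 held a CHR (KIF11, KIF15, KIF18A, KIF23 and KIF4A) and 9 a CCAAT box. Among the 9 transport kinesins 1 held a CHR (KIF5B) and 4 a CCAAT box, KIF5B included. KIF4A, whose circles lay lower in the knockdown, was among the 5, and KIF2A and KIF14 were not. These are letters in a window and not shown binding sites.

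KIF15, which helps to keep the spindle bipolar, had 30 and 73 counts in the controls and 68 and 91 in the knockdown, or 6.35, 13.1, 24.1 and 23.3 per 100000. The groups did not overlap, but the log2 fold change of 1.54 ± 0.46 missed the threshold (edgeR adjusted p = 0.216). All 4 of its tested circles lay higher in both knockdown libraries, against 23.2% of all circles. They are part of the same summed counts, so this is not separate support. KIF14, a motor of the midbody in cytokinesis, had 39 and 110 counts against 98 and 138, or 8.26, 19.8, 34.7 and 35.3 per 100000. The knockdown libraries were nearly equal and the controls differed, with a log2 fold change of 1.57 ± 0.49 (adjusted p = 0.231). KIF2A, a kinesin that takes microtubules apart at their ends, had 76 and 223 counts against 143 and 229, or 16.1, 40.1, 50.6 and 58.6 per 100000 (log2 fold change 1.21 ± 0.51, adjusted p = 0.349). All 11 tested circles of KIF2A also name the overlapping gene ENSG00000288643, so their counts cannot be assigned to KIF2A alone. Control library 1 was the lowest for all of these genes, and which control was kept moved the values: on leaving out control library 1 or 2, KIF15 was at 1.09 or 2.46, KIF14 at 1.06 or 2.65 and KIF2A at 0.69 or 2.34 on the log2 scale. All of these passed the threshold, and none did without knockdown library 1 or without knockdown library 2.

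KIF18A (chromosome 11, 28020619 to 28108156) encodes a motor that damps chromosome movement on the metaphase plate. It had 2183 counts in 110 detected circles: 349 and 801 in the controls and 384 and 649 in the knockdown, or 73.9, 144, 136 and 166 per 100000. Knockdown library 1 lay below control library 2, so the groups overlapped, and the log2 fold change was 0.74 ± 0.48 (adjusted p = 0.502), with 0.31 without control library 1 and 1.61, past the threshold, without control library 2. KIF4A, a chromosome-bound motor of the central spindle, went the other way, with 132 and 157 counts against 51 and 44. That is 27.9 and 28.2 per 100000 in the controls and 18.0 and 11.3 in the knockdown, with no overlap (log2 fold change -0.65 ± 0.36, adjusted p = 0.455, and -0.75 with 0.00633 without control library 1). KIF23, part of the centralspindlin complex, had 37 and 35 counts against 20 and 18, and its 7.83, 6.29, 7.07 and 4.61 per 100000 overlap. KIF2C and KIF20A were seen mainly in control library 1, with 24, 0, 1 and 1 counts and with 14, 0, 2 and 1 counts over the 4 libraries.

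Kinesins of transport lay near the whole table, with KIF5B well above it. None of 10 tested passed with edgeR, and at an unadjusted p under 0.05 there was 1 higher (KIF5B) and 2 lower (KIF13B and KIF1C), against 7.58% and 6.19% of all host genes. The median log2 fold change was -0.32, near the -0.26 of all host genes. For 5 of the 10 the groups did not overlap with the knockdown below (36.7% of all host genes), and for 2, KIF5B and KIFBP, with the knockdown above (15.3%).

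KIF5B (chromosome 10, 32009015 to 32056425) encodes the ubiquitous heavy chain of conventional kinesin, which carries mitochondria, vesicles and RNA granules. Its counts were 15 and 20 in the controls and 37 and 95 in the knockdown, or 3.18, 3.59, 13.1 and 24.3 per 100000. Both knockdown libraries were above both controls but differed from each other, with means of 3.38 ± 0.296 and 18.7 ± 7.95 (SD, n = 2 each). The log2 fold change of 2.77 ± 0.47 missed the threshold by little (edgeR adjusted p = 0.0569, and 0.114 with edgeR's newer dispersion method). It was 2.65 or 3.16 without control library 1 or 2, and 3.19 or 2.23 without knockdown library 1 or 2. Circles starting at the acceptor at 32037607 had 0 and 3 counts against 11 and 33, a pooled ratio of 22.4 with an exact 95% counting interval of 7.19 to 113. Such an interval takes reads as independent and leaves out the spread between libraries. All 4 tested circles of the gene lay higher in both knockdown libraries, against 23.2% of all circles. They had 0 to 3 counts in each control library and reached the 10-count minimum mainly through the knockdown libraries. That tally is therefore not separate support for a rise.

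KIF1B, which carries mitochondria and synaptic vesicle precursors, had 228 and 298 counts in the controls and 102 and 144 in the knockdown, or 48.3, 53.5, 36.1 and 36.9 per 100000. The groups did not overlap and the means differed by a ratio of 0.717, but the TMM-scaled log2 fold change was only -0.18 ± 0.34 (adjusted p = 0.844), and 0.17 without control library 2. KIF16B, a motor of early endosomes, had 97 and 137 counts against 38 and 52, or 20.5, 24.6, 13.4 and 13.3 per 100000 (log2 fold change -0.46 ± 0.35, adjusted p = 0.582). Without control library 1 it was -0.64 (adjusted p = 0.0281), and without control library 2 it was -0.05 (adjusted p = 0.909).

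KIF13A, which moves recycling endosomes, had 68 and 50 counts against 11 and 22, or 14.4, 8.98, 3.89 and 5.63 per 100000 (log2 fold change -0.94 ± 0.44, adjusted p = 0.394). KIF13B, a relative of KIF13A, had 94 and 39 counts against 14 and 10, or 19.9, 7.01, 4.95 and 2.56 per 100000 (log2 fold change -1.50 ± 0.57, adjusted p = 0.312). Without control library 1 these values were -0.64 and -0.72, and without control library 2 both genes passed, at -0.98 (adjusted p = 0.0173) and -1.89 (adjusted p = 5.49e-07). For both genes the knockdown lay below, and intron-type circles held much of the signal, 54.3% of the counts of KIF13A and 79.0% of those of KIF13B. With exon-type circles alone the log2 fold change of KIF13B was -0.56 ± 0.76 (adjusted p = 0.743), against -1.17 ± 0.61 for KIF13A (adjusted p = 0.377). The intron-type share of the whole library moved with these values, being highest in control library 1, and its part in them was not tested.

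KIF1C, which carries vesicles to the cell edge, had 11 and 5 counts in the controls and 0 in both knockdown libraries, at least 1.76-fold lower against a floor of 3 counts per library (fitted unadjusted p = 0.0454, adjusted p = 0.352). KIF3A, a subunit of the heterotrimeric kinesin of cilia, had 22 and 20 counts against 13 and 19 and overlapped between the groups (log2 fold change 0.52 ± 0.50, adjusted p = 0.667). Its partner KIF3B had 17 and 9 against 7 and 2. KIF21A, which restrains microtubule growth at the cell cortex, had 24 and 35 against 9 and 23. KIFBP, which binds kinesins and keeps them off microtubules, had 6 and 4 against 4 and 8 (log2 fold change 1.13 ± 0.99, adjusted p = 0.632). KIFC3 had 4 counts, all in control library 1.

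Of the kinesins of cilia, centrioles and other roles 2 were tested, and neither passed. KIF27, known from motile cilia, had 42 and 83 counts against 44 and 76, or 8.89, 14.9, 15.6 and 19.5 per 100000 (log2 fold change 0.84 ± 0.43, adjusted p = 0.426, and 1.56 with 6.86e-07 without control library 2). KIF24, which trims microtubules at the mother centriole, had 21 and 30 against 6 and 18, or 4.45, 5.39, 2.12 and 4.61 per 100000, and overlapped. KIF6 and KIF7 had 4 and 3 counts, all in the controls.

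None of the 4 tested dynein genes passed with edgeR, and none reached an unadjusted p under 0.05. Their median log2 fold change was 0.21, against -0.26 over all host genes. DYNC1H1, the heavy chain that holds the motor domain, had 71 and 47 counts in the controls and 30 and 27 in the knockdown. At 15.0, 8.44, 10.6 and 6.91 per 100000 the groups overlapped, and the log2 fold change of -0.09 ± 0.42 (adjusted p = 0.940) became 0.25 without control library 1 and 0.18 without knockdown library 2. DYNC1I2, an intermediate chain that binds dynactin, had 47 and 60 counts against 13 and 17, or 9.95, 10.8, 4.60 and 4.35 per 100000. Its groups lay apart with little spread within either, at a log2 fold change of -0.91 ± 0.43 (adjusted p = 0.395, and 0.0230 without control library 1). Exon-type circles of this gene had 24 and 33 counts against 5 and 8, and intron-type circles 23 and 27 against 8 and 9, so both types were lower. The light intermediate chains, which link dynein to cargo adaptors, overlapped. DYNC1LI1 had 6 and 17 counts against 11 and 9 (log2 fold change 0.74 ± 0.77, adjusted p = 0.688), and DYNC1LI2 had 11 and 8 against 8 and 6 (0.52 ± 0.79, adjusted p = 0.800).

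Dynactin circles were few. DCTN4, of the pointed end of the dynactin filament, had 31 and 9 counts in the controls and 0 and 3 in the knockdown. The pooled ratio was 0.115, with an exact 95% counting interval of 0.0227 to 0.360. That interval takes reads as independent and leaves out the spread between libraries. The edgeR log2 fold change was -2.79 ± 1.19 (unadjusted p = 0.0465, adjusted p = 0.356), and -1.58 or -3.24 without control library 1 or 2. A single intron-type circle seen in control library 1 alone held 12 of the 43 counts of DCTN4. DCTN5 had 17, 0, 3 and 6 counts and DCTN6 had 11, 2, 1 and 1 over the 4 libraries, both highest in control library 1. DCTN1 and DCTN2 had 2 and 1 counts. The rule also took the antisense RNA genes KIF9-AS1, with 5 and 7 counts against 5 and 2 (log2 fold change 0.21 ± 1.17, adjusted p = 0.951, and -0.06 with library totals), and KIF23-AS1, with 4 counts, and the pseudogene KIF28P, with 1 count.

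Single circles were compared in the same way over all 21576 circles with at least 10 counts, of which 134 were motor circles. These held 65.1% of the motor counts, and 40 of them had 10 to 12 counts, while 72 circles with 7 to 9 counts were just under the minimum. No motor circle passed with edgeR, as over all circles, where 0% were called in either direction. At an unadjusted p under 0.05, 28 motor circles were higher and 2 lower of 134, against 9.29% higher and 4.26% lower of all circles. DESeq2 called 13 and voom 1. Both knockdown libraries lay above both controls for 55 circles (41.0%, against 23.2% of all circles), and below them for 12 (8.96%, against 22.9%). The median log2 fold change was 0.61 over the 134 and -0.41 over all circles. Among the 28, 14 were circles of KIF20B and 5 of KIF18A, with 3 each from KIF11 and KIF5B, and circles of 1 gene share its RNA. Leaving out knockdown library 1 left 11 higher circles at that p and leaving out knockdown library 2 left 5, while without control library 1 or 2 there were 37 and 49.

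Whether circles of 1 gene changed unequally was tested with edgeR's diffSpliceDGE over 2335 genes, of which 3.94% passed. Of 14 motor genes with at least 2 circles in that test, KIF20B (30 circles, adjusted p = 0.00277) and KIF18A (27 circles, adjusted p = 0.0403) passed. Without knockdown library 1 the adjusted p was 0.995 for both, and without knockdown library 2 it was 0.985 for both. With the Simes method it was 0.0983 for KIF20B and 0.0417 for KIF18A.

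**Figure D3:**
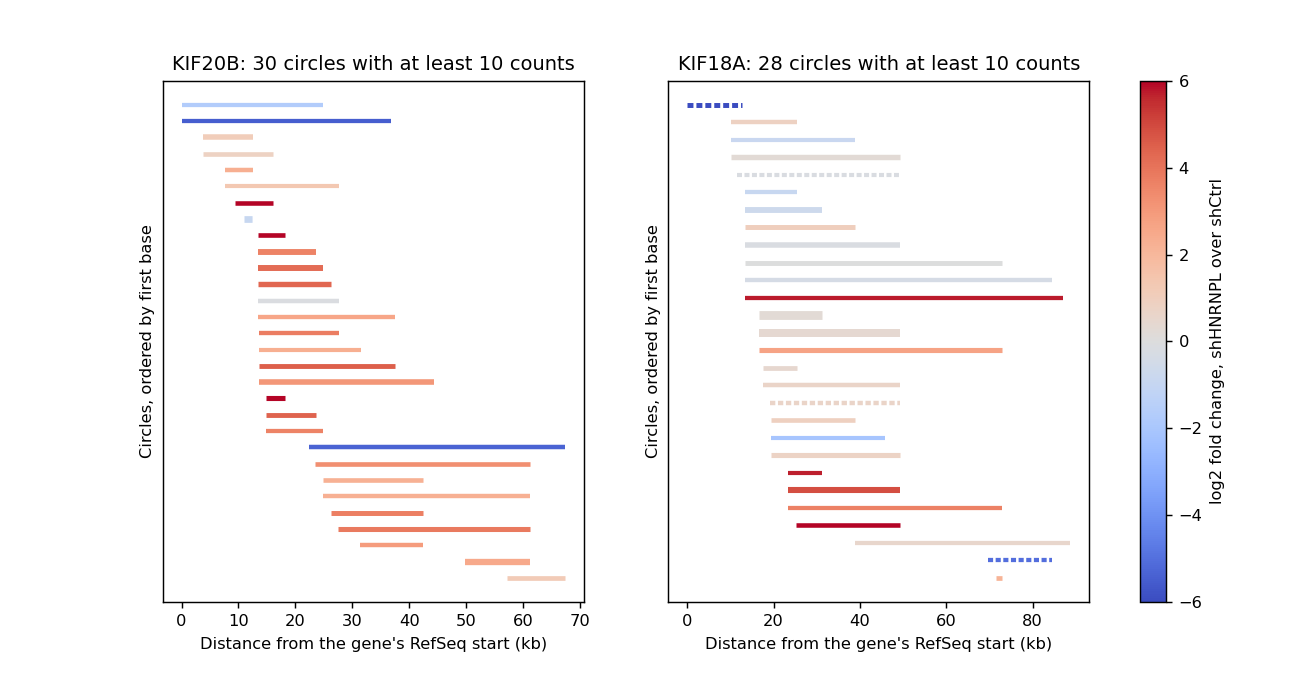
Circles of KIF20B and KIF18A with at least 10 counts, each drawn from its first to its last base as distance from the gene's RefSeq start in kb, with dashed lines for intron-type circles, line width growing with log10 of the counts and colour giving the log2 fold change (colour scale ends at -6 and 6). Most KIF20B circles past 13 kb are red, and in KIF18A the circles starting at 23.3 kb are red beside paler ones starting at 16.6 kb. The latter have log2 fold changes of 0.28, 0.42 and 2.68.

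In KIF18A the groups differed at some of the sites where circles begin or end and not at others. The circle with the most counts of all motor circles spans chr11:28077007-28091513, has 7 exons and 942 nt, and had 125 and 416 counts in the controls and 131 and 293 in the knockdown. At 26.5, 74.7, 46.3 and 75.0 per 100000 it did not separate the groups (log2 fold change 0.28 ± 0.48, adjusted p = 0.791, and -0.12 without control library 1). A longer circle from the same acceptor, chr11:28058926-28091513, with 10 exons and 1465 nt, had 69 and 156 against 77 and 119 (adjusted p = 0.560). The circle chr11:28058926-28084808 shares that donor but begins 3 exons further downstream. It had 0 and 3 counts in the controls and 30 and 33 in the knockdown, so the groups stood apart, with a log2 fold change of 4.90 ± 0.80 (unadjusted p = 0.000963, adjusted p = 0.103). Over all exon-type circles, those starting at the acceptor at 28084808 had 0, 5, 44 and 47 counts in the 4 libraries. Those starting at the main acceptor at 28091513 had 198, 585, 222 and 427. Among donors, circles ending at 28035387 had 4 and 28 counts against 29 and 42 (ratio 3.57 per 100000), and those ending at 28058926 had 95 and 198 against 140 and 198 (ratio 1.80), both without overlap. Those ending at 28077007, at 137 and 464 against 148 and 309, overlapped. Each of the 3 exons between the acceptors at 28084808 and 28091513 was in fewer of the gene's exon-type counts in the knockdown. The exon at 28088524 to 28088721 was in 95.2% and 97.0% of them in the controls and in 80.5% and 83.2% in the knockdown, whereas the exon at 28084632 to 28084808 was in 95.2% and 97.0% against 92.9% and 90.2%.

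In KIF20B circles lay higher at most of the more used sites along the gene, by amounts that differed between sites. Of 30 tested circles 21 lay above in both knockdown libraries and 1 below, against 23.2% and 22.9% of all circles. Several of the 21 had 0 to 2 counts in each control library and reached the 10-count minimum through the knockdown libraries. The tally is therefore not separate support for a rise. Circles starting at the acceptor at 89714955 had 5 and 22 counts in the controls and 63 and 133 in the knockdown, a ratio of 11.2 per 100000. Circles starting at 89716436 had 1 and 2 against 34 and 55, a pooled ratio of 45.3 with an exact 95% counting interval of 15.0 to 224, which leaves out the spread between libraries. At the 5' end, circles starting at 89705294 had 3 and 27 against 17 and 25, or 0.635, 4.85, 6.01 and 6.40 per 100000, a ratio of 2.26. Those starting at 89709167 had 1 and 9 against 10 and 15, a ratio of 4.03, and at both sites the groups did not overlap. Further downstream, circles starting at 89723964 had 0 and 18 against 6 and 10, a ratio of 1.45. Those ending at 89768888 had 0 and 22 against 4 and 12, a ratio of 1.14, and at these sites the groups overlapped. The exon at 89705294 to 89705441 was in 52.6% and 20.1% of the gene's exon-type counts in the controls and in 6.93% and 4.91% in the knockdown. Control library 1 had 57 such counts, of which 8 and 11 came from a pair of circles that start near the first base of the gene and carry no AG-GT splice signal pair. Single circles lay higher in both knockdown libraries: chr10:89714955-89726521 had 3 and 1 against 18 and 37 (log2 fold change 4.18 ± 0.73, adjusted p = 0.109), and chr10:89714955-89725158 had 1 and 5 against 20 and 30 (3.61 ± 0.62, adjusted p = 0.107). The circle chr10:89716436-89719706, with 5 exons and 782 nt, was at 0 in both controls and at 9 and 16 in the knockdown, at least 6.20-fold higher against the floor (adjusted p = 0.119). Further downstream chr10:89751346-89762835 had 9 and 7 against 18 and 49 (2.51 ± 0.59, adjusted p = 0.161). The intron-type circle chr10:89712618-89714083, 1466 nt long and the KIF20B circle with the most counts, lay below in both knockdown libraries at 45 and 46 against 12 and 22, or 8.90 ± 0.891 and 4.94 ± 0.982 per 100000 (SD, n = 2 each, log2 fold change -0.91 ± 0.43, adjusted p = 0.437).

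**Figure D4:**
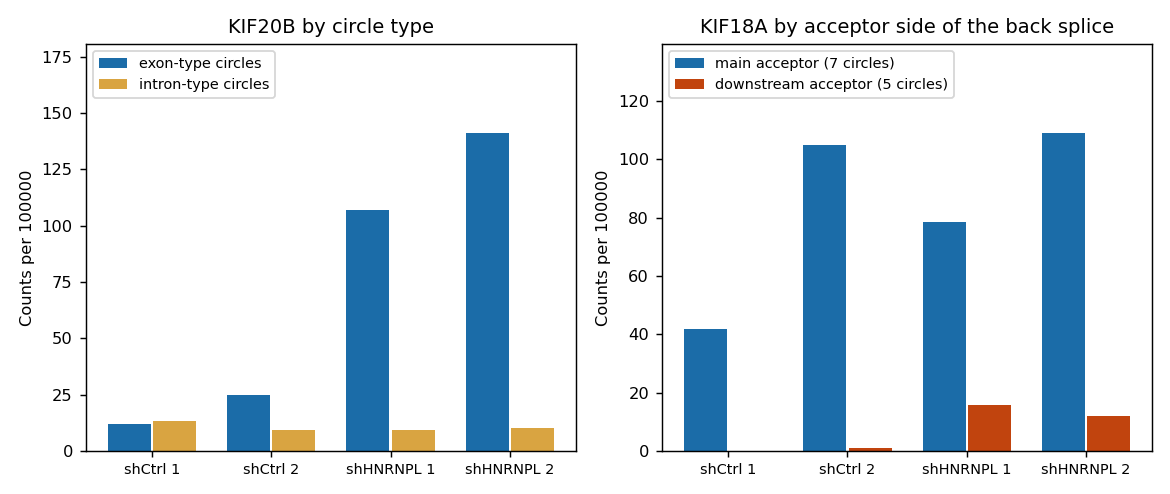
Counts per 100000 in each library for exon-type and intron-type circles of KIF20B (left) and for KIF18A circles that start at the main acceptor or at the acceptor downstream (right). KIF20B exon-type circles reach 107 and 141 in the knockdown against 12.1 and 25.0 in the controls, while its intron-type circles stay between 9.20 and 13.3, and KIF18A circles of the downstream acceptor, with 0 and 5 counts in the controls, have 44 and 47 in the knockdown.

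KIF2A had a short circle with the smallest adjusted p of all motor circles. It spans chr5:62363178-62366481, has 4 exons and 527 nt and also names ENSG00000288643, which overlaps the gene, so its counts cannot be assigned to KIF2A alone. Its counts were 16 and 36 in the controls and 79 and 132 in the knockdown, or 4.93 ± 2.18 against 30.9 ± 4.14 per 100000 (SD, n = 2 each). The groups stood apart at a log2 fold change of 2.62 ± 0.39 (edgeR adjusted p = 0.0984). A circle of 19 exons that contains it, chr5:62347130-62385632, had 15 and 51 against 12 and 19 and overlapped (adjusted p = 0.700). The circle chr5:62347130-62365353 had 2 and 11 counts in the controls and 0 in the knockdown (adjusted p = 0.437).

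Other named circles lay on the side of their genes. The KIF14 circle chr1:200614318-200618838 had 1 and 12 counts in the controls and 25 and 24 in the knockdown (log2 fold change 2.60 ± 0.78, adjusted p = 0.240). In KIF15 chr3:44801450-44828300 had 4 and 23 against 22 and 36 (1.76 ± 0.63, adjusted p = 0.320). KIF1B circles started nearly all at 1 acceptor, at 10232250, which held 86.6% of the gene's exon-type counts, and chr1:10232250-10278128, with 11 exons and 1241 nt, had 148 and 174 against 60 and 76. That is 31.3 ± 0.0460 against 20.3 ± 1.25 per 100000 (SD, n = 2 each, log2 fold change -0.69 ± 0.33, adjusted p = 0.437). The KIF16B circle chr20:16494291-16515664 had 39 and 75 against 20 and 28 (-0.64 ± 0.37, adjusted p = 0.437). In KIF4A chrX:70341799-70387297 had 34 and 37 against 11 and 9 (-1.25 ± 0.49, adjusted p = 0.353), and it was 1 of the 2 lower circles at an unadjusted p under 0.05. The other was the KIF13B intron-type circle chr8:29196187-29197748, with 14 and 14 against 1 and 2 (-2.63 ± 0.77, adjusted p = 0.233).

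By the median over single circles, intron-type motor circles lay lower, as over the whole table, and exon-type ones higher, unlike the whole table. Of the 134 tested motor circles 116 were exon-type, with a median log2 fold change of 0.76 (-0.25 over all 17790 such circles), and 18 were intron-type, with -2.27 (-1.97 over all 2766). KIF20B and KIF18A held 30 and 28 of the 134. Summed per gene, exon-type circles lay higher for some motor genes and lower for others, such as KIF11 (2.67 ± 0.37) and KIF4A (-0.80 ± 0.35). Intron-type circles held 27.2% and 13.3% of motor counts in the controls and 10.1% and 7.60% in the knockdown, against 19.7%, 10.6%, 9.93% and 10.0% of all counts. Of the 18 intron-type circles 5 had all their counts in control library 1 and 2 in control library 2, and of the 116 exon-type circles 3 and 2. AG-GT splice signals bounded 93.2% of detected exon-type motor circles and 78.7% of intron-type ones, close to 90.1% and 77.4% over all circles that are not antisense.

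Motor circles held more exons than others. The count-weighted median was 9, 8, 8 and 7 exons in the 4 libraries, against 6 in each over all exon-type circles. Their count-weighted median length was 1278 and 1241 nt in the controls and 1272 and 1240 nt in the knockdown, with no separation of the groups. Of the 1083 detected circles 552 were seen in 1 library and 88 in all 4, and 128 of the 1160 name several genes, none of them 2 motor genes. When every library was thinned to 282737 counts, 373.2 and 332.7 motor circles were detected in the controls and 459.0 and 475.7 in the knockdown (means of 10 draws). Among all circles, 84892 and 60268 were detected in the controls and 62513 and 64021 in the knockdown at that depth, and the groups overlapped.

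Partners of the motors and other motor families were read for comparison. Of 58 adaptors and regulators, 38 had circles and 29 were tested. KIFAP3, the cargo-binding subunit of the KIF3A motor, rose from 11 and 31 counts to 153 and 231 (log2 fold change 4.09 ± 0.52, edgeR adjusted p = 0.0388). At an unadjusted p under 0.05, 5 of the 29 were higher and 0 lower, and the median was 0.12. Dyneins of cilia and flagella were listed from the host genes of the circle data, with the DYNC2 genes added. That 16 of the 17 had circles was therefore largely set by the listing. Of 10 tested 1 passed. That was DYNC2LI1, a light intermediate chain of the dynein of intraflagellar transport, which rose from 7 and 15 counts to 51 and 92 (3.58 ± 0.49, adjusted p = 0.0388). For both genes the adjusted p was 0.0874 with the newer dispersion method, and 0.595 and 0.919 without knockdown library 1 or 2. In the list of dyneins 4 were higher at an unadjusted p under 0.05, none lower, and the median was 1.24. Of 12 tested myosins, the motors of actin, none passed with edgeR, 2 were lower and 0 higher at an unadjusted p under 0.05, and the median was -0.49. Over all host genes 7.58% were higher and 6.19% lower at that p, with a median of -0.26. None of these lists was tested against the motor genes.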

How the data were processed

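The deposited table gives raw counts for each back-splice position in 4 columns, 1 per library, and CIRI-long, a caller for long reads, is named in its rows. The column of circle length, in nt, comes from the authors. A table of scaled values was not used. The genome build GRCh38.p14 and DESeq2 come from the submitters' processing notes, with no role given, and aligner settings are not given in the sources used here.

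Counts were summed per host gene, a circle that names several genes counting for each. Genes and circles whose summed counts reached 10 were tested with edgeR 4.0.16 (R 4.3.3) by glmQLFit and glmQLFTest with TMM factors of 0.877 to 1.22, and adjusted by Benjamini-Hochberg over all features. An SE is the log2 fold change over the square root of F. Circle use was tested with diffSpliceDGE. Alternatives used limma 3.58.1 (voom), DESeq2 1.42.0, other scalings, filters and rows. Per 100000 values use library totals without TMM. Means are over 2 libraries, with SD. Bounds use a floor of 3 counts per library. Counting intervals (95%, exact, from the binomial split of pooled counts) cover only the counting error of reads taken as independent, and no spread between libraries. Precision depends on totals of 282737 to 556578 counts and on the spread between the 2 libraries of a group. Scripts were tested on simulated data. Promoters come from RefSeq.

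The motor genes, their role groups and the other lists were chosen with earlier results of these data known, and so was edgeR's older dispersion method, whose outcome beside the newer one was already known. Named were genes past the threshold, the 12 with the most counts and of the rest the 5 higher and 5 lower with the smallest p, and circles past the threshold, the 10 with the most counts and the 5 higher and 5 lower with the smallest p among those whose groups do not overlap. Other names came after their values were seen. Single values of some partner genes are not reported here. Replicate numbers were not treated as pairs: libraries of one number correlated in their deviations from the group means at only 0.0806 (4944 circles).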

Additional observations from a re-analysis of the deposited data

How the results depend on the processing

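The number of motor genes past the threshold was 1 with the settings reported and moved with most alternatives, and the cause was not tested. It was 2 with library totals as scaling and 2 with DESeq2 size factors, 3 with DESeq2, 6 with voom, 0 with the newer dispersion method, 5 without a filter, 3 where 2 libraries each had 5 or more counts, 3 with at least 40 counts, 3 with exon-type circles, 3 with circles naming 1 gene and 5 with the replicate number as a block. Leaving out 1 library gave 0 to 13, a lone library being assumed to vary like the others. Motor circles past it went from 0 to 13 with DESeq2, 1 with voom, 5 without a filter, 20 where 2 libraries each had 5 or more counts, 6 with at least 40 counts, 5 with exon-type circles and 22 with the replicate block, and leaving out 1 library gave 0 to 61. Circle use passed for 2 genes, 1 with Simes, 2 with the replicate block and 0 to 4 without 1 library. At an unadjusted p under 0.05, added after seeing the data, 2 to 6 cell division kinesins were higher over the settings (5 as reported), and 5 to 49 motor circles (28).

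The excess of motor counts in the knockdown, 177 per 100000, stayed positive, with 131 to 223 when 1 library was left out, and 186 and 168 within the replicate numbers as a block. The excess of detected circles at equal depth was 114, and 77.8 with circles of at least 2 counts. The difference in median length of -3.50 nt ran from -22.0 to 15.0 when 1 library was left out, and was 15.0 without control library 1 and 12.5 without knockdown library 2. Signs turned for KIF1B (-0.31 to 0.17 when 1 library was left out, positive without control library 2), DYNC1H1 (-0.36 to 0.25, with 0.25 without control library 1 and 0.18 without knockdown library 2) and KIF9-AS1 (-0.06 with library totals, -0.80 to 0.88 when 1 library was left out, with -0.02 without control library 1). They turned as well for circle chr11:28077007-28091513 (-0.12 to 1.06, negative without control library 1) and circle chr5:62347130-62385632 (-0.83 to 0.38, positive without control library 2). With 2 libraries a group, counts near 10 carry wide errors, and a gene that misses the threshold is not shown to be the same in both groups.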

Other observations

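The motor genes with the smallest p-values, KIF11, KIF5B and KIF20B, all lie on chromosome 10, as does KIFBP, which was noticed after their values were seen. Over the 342 tested host genes of chromosome 10 the median log2 fold change was -0.13, 3 genes passed the threshold, and 7.60% were higher at an unadjusted p under 0.05, against 7.58% over all host genes. Circles on chromosome 10 outside the motor genes were at 5629 and 5889 per 100000 in the controls and 5013 and 4980 in the knockdown.

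Antisense circles naming motor genes had 108 and 29 counts in the controls and 19 and 43 in the knockdown, and 22.9 and 5.21 per 100000 in the controls. Over the whole table antisense circles were at 6790, 2690, 2377 and 2610 per 100000, so control library 1 was the highest for both.

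In KIF5B the count-weighted midpoint of exon-type circles lay at 86.9% and 90.6% of the gene's length in the controls and at 49.4% in both knockdown libraries, with 31 circles and few control counts. In KIF1B, KIF2A and KIF16B it was the same in all 4 libraries, at 26.1%, 69.1% and 22.7%. A midpoint does not show how far circles extend. The KIF2A exon at 62347130 to 62347224 was in 41.1% and 58.6% of exon-type counts in the controls and in 21.3% and 20.6% in the knockdown. For the exon at 62363178 to 62363320 these shares were 92.9% and 89.7% against 90.2% and 92.1%.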
